A study of Glycine max with 22 samples.

Results

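Bud removal was tested here as 1 average effect over 3 plant ages, on the 18 of 22 arrays that hold bud-removed leaves and untreated leaves of the same age. Mature leaves of soybean (Glycine max) came from 9 bud-removed samples: D15, plant age 45 days, taken after 15 days in which every axillary and terminal bud was removed daily (n = 3); R20, age 50 days, taken 5 days after removal had stopped and shoots had begun to regrow (n = 3); and R30, age 60 days, after 15 days of regrowth (n = 3). The 9 untreated controls, C15, C20 and C30 (n = 3 each), matched them in age and grew beside the treated plants, and all plants stood in chambers with 16 h of light a day. The remaining 4 arrays, of plants aged 30 days, have no treated counterpart and were not used. The R20 and R30 plants had regrowing shoots when sampled, so the average effect covers plants without buds and plants that had lost them earlier. The cultivar and the number of plants behind a sample are not given in the sources used here, so the p-values reflect sample-to-sample spread, which may be in part technical.

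Growing shoot tips are sinks: they draw on the amino acids and sugars that mature leaves export. When sinks are taken away, soybean leaves are known to store nitrogen in the vacuoles of a specialised cell layer, the paraveinal mesophyll, as vegetative storage proteins and vegetative lipoxygenases. Jasmonate, a hormone made from linolenic acid through lipoxygenase, allene oxide synthase and allene oxide cyclase, is known to induce the storage proteins and many defence proteins. Leaf ageing runs the other way, with export of nitrogen and breakdown of chlorophyll, and several transcription factors of the NAC family promote it in Arabidopsis.

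RNA was hybridised to Affymetrix Soybean GeneChips, on which a probe set reports the signal of 1 transcript or a few related ones. Of 37593 soybean probe sets, 32280 exceeded the signal floor on at least 3 of the 18 arrays and were tested. The floor is each array's 95th percentile of probe sets for soybean pathogens, 11.8 to 22.1 signal units. A probe set was called when its adjusted p in limma, a linear model fitted across all probe sets, was under 0.05, and each gene stands for its brightest probe set by mean over the 18 arrays. Differences are given on the log2(signal + 1) scale as bud-removed minus control, with their standard error. For genes that are dim in a group, their size depends on signals below the floor and on the 1 that is added. Signals are given as the lowest, median and highest of 9 arrays. In whole leaf samples, fewer cells of a type and less RNA per cell cannot be told apart.

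Some arrays stood apart. C15 replicate 1, labelled a control, lay nearer to the D15 arrays than to the other C15 arrays for 77.4% of the 1448 probe sets that were called and changed at least 4-fold without it. The same share was 4.28% to 34.8% on the 17 other arrays, and the highest of these was C30 replicate 1. R20 replicate 3 had a median soybean signal of 38.2, against 57.1 to 81.3 on the 17 others, and an actin 3′ over 5′ ratio, which rises as RNA breaks down, of 136 against 2.29 to 8.37. The day-20 arrays of both groups had BioC over BioB hybridisation control ratios of 2.29 to 3.04, against 0.877 to 1.19 at the other ages. The R20 and C20 arrays also differed without overlap in 4 array measures. The signal floor was 14.4 to 21.8 on R20 and 11.8 to 13.0 on C20 arrays, and the median soybean signal was 38.2 to 68.6 on R20 and 73.1 to 81.3 on C20 arrays. The actin ratio was 3.63 to 136 on R20 and 2.57 to 3.48 on C20 arrays, and the signal of the Cre hybridisation control was 7259 to 15615 on R20 and 4646 to 5603 on C20 arrays. Values without the doubtful arrays, and with the actin ratio in the model, are given below, and the part of the other array differences in the results was not tested. Of the marker genes, all 6 of green leaf exceeded the floor on all 18 arrays, and 4 of 7 seed storage genes exceeded it on none.

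Bud removal changed transcripts in both directions, with nearly equal numbers higher and lower in the deposited values. Of the 32280 probe sets 7053 were called (21.8%), 3571 higher in bud-removed leaves (11.1%) and 3482 lower (10.8%). The median log2 difference over all tested probe sets was -0.13 in the deposited values and -0.01 after each array was centred on its median, where 3736 were higher and 2336 lower, so directions hold relative to that shift. Counted by gene, 1641 of 5644 were called (29.1%), 1020 higher (18.1%) and 621 lower (11.0%). Of the 970 of these with an informative name 358 were called (36.9%), 243 higher (25.1%) and 115 lower (11.9%). Without C15 replicate 1 the count of called probe sets was 9445, with 4446 higher and 4999 lower. Without R20 replicate 3 it was 7762, with 3975 higher and 3787 lower, and with the actin ratio as a covariate 9739, with 4753 higher and 4986 lower. Leaving out the 6 arrays of day 20 left 2500 calls, 1661 higher and 839 lower, of which 2304 were among the 7053.

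**Figure D1:**
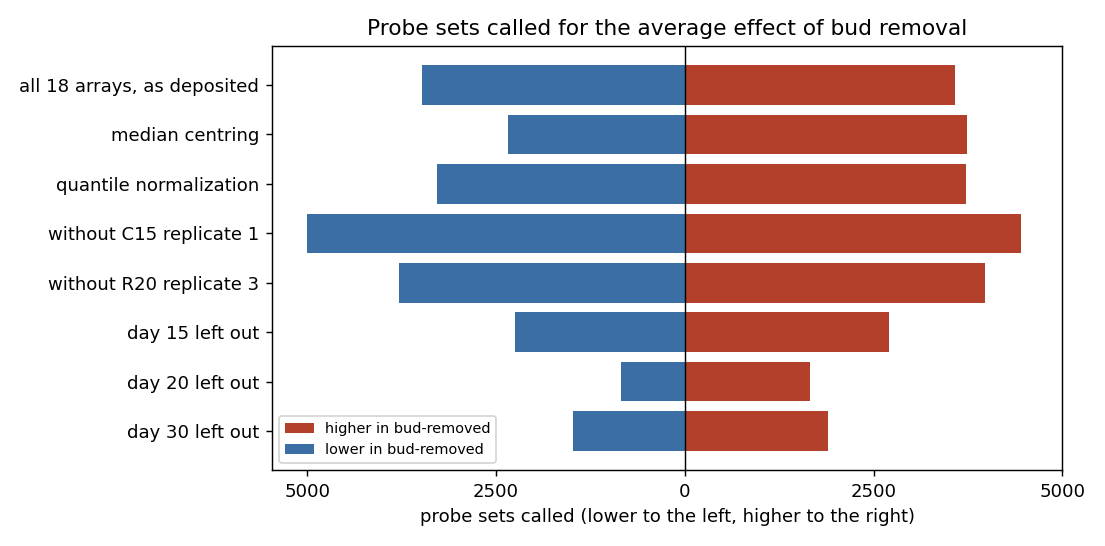
Number of soybean probe sets called higher (right, red) or lower (left, blue) in bud-removed leaves for the average effect, under 8 settings of the arrays or the scaling. Calls were fewest, 2500, when day 20 was left out, and leaving out C15 replicate 1 gave 9445.

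The vegetative storage protein genes VSPB and VSPA were the first and the third largest rises among named genes. These glycoproteins of the acid phosphatase family are the nitrogen reserve that soybean leaves build when sinks are lost. VSPB had signals of 7893, 11723 and 13004 in bud-removed leaves, against 5.32, 29.7 and 1452 in controls. Its 9 bud-removed arrays all lay above all 9 controls, and the highest control was C15 replicate 1. The average difference was 8.16 ± 0.62 (adjusted p = 5.32e-07). VSPA had 7332, 9128 and 11359 in bud-removed leaves, against 10.6, 32.0 and 3542 in controls, again without overlap (7.38 ± 0.68, adjusted p = 2.31e-06). All 9 bud-removed arrays lay above all 9 controls for 33 of the 970 named genes (3.4%) and 368 of all probe sets (1.14%). Without C15 replicate 1 the differences were 8.80 ± 0.30 for VSPB and 8.07 ± 0.32 for VSPA. The other tested probe sets of both genes, 6 of VSPA and 2 of VSPB, were called higher too. Another VSPA probe set had the largest difference of all, 9.08 ± 0.82, and since the transcripts are related, a probe set may report both. AG1, the second largest rise, exceeded the floor on all 9 bud-removed arrays, with 1342, 3574 and 6642, against 3 of 9 controls, with 1.55, 11.5 and 894 (7.67 ± 0.74, adjusted p = 3.57e-06). Its rank rests on control signals below the floor: with a pseudocount of 16 in place of 1, AG1 came to 6.39 and VSPA to 6.81. GH, the tenth, had 5784, 9223 and 13766 in bud-removed leaves, against 80.3, 227 and 10089 in controls (4.71 ± 0.54, adjusted p = 1.9e-05). Here 8 controls lay below all treated arrays and C15 replicate 1 lay among them.

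**Figure D2:**
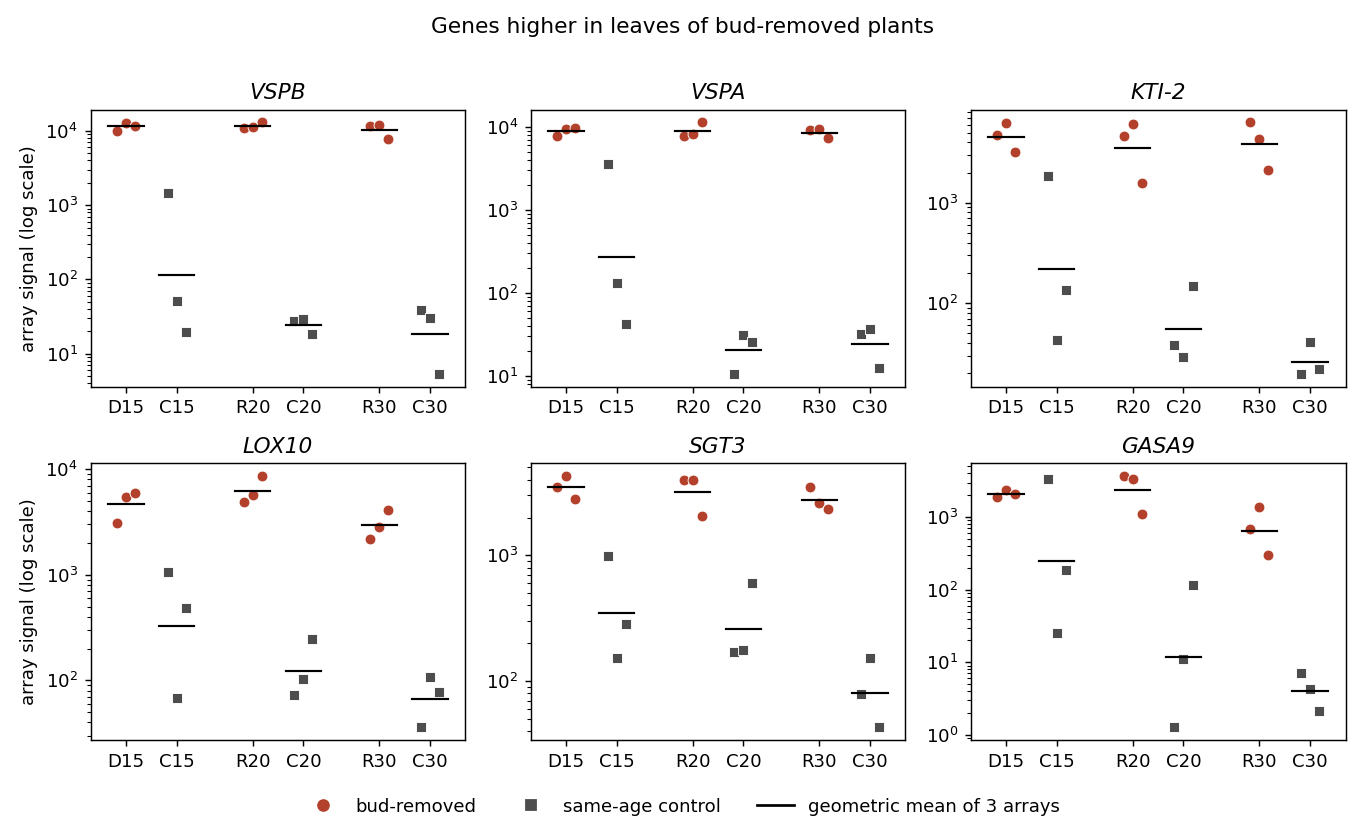
Array signals on a log scale for 6 genes that rose, with the 3 arrays of D15, R20 and R30 (red circles) each left of the 3 arrays of the same-age control (grey squares) and a bar at the geometric mean. VSPB, VSPA, LOX10 and SGT3 show no overlap over the 9 arrays a side, while the C15 replicate 1 values of KTI-2 and GASA9, 1838 and 3342, lie among the bud-removed arrays.

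All 7 tested lipoxygenase genes rose, with a median log2 difference of 2.48, against 0.13 over the 970 named genes. LOX10 had signals of 2181, 4872 and 8643 in bud-removed leaves, against 35.8, 104 and 1055 in controls (4.97 ± 0.44, adjusted p = 1.88e-06). LOX7 had 8818, 10393 and 15452 in bud-removed leaves, against 34.0, 319 and 4265 in controls (4.84 ± 0.57, adjusted p = 2.15e-05). VLXC, a vegetative lipoxygenase, had 5856, 6993 and 7982 in bud-removed leaves, against 189, 1006 and 3916 in controls (2.94 ± 0.41, adjusted p = 9.76e-05). For 5 of the 7 genes, these 3 included, no control reached the lowest bud-removed array, against 3.4% of all named genes. The smallest rise of the 7 was 0.79, and 5 of them were called when day 20 was left out.

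Downstream in jasmonate synthesis the allene oxide cyclase genes, whose product closes the ring of the hormone precursor, rose by less. AOC6 had 211, 488 and 601 in bud-removed leaves, against 42.3, 69.3 and 610.1 in controls (1.92 ± 0.33, adjusted p = 0.000568). Its highest control, C15 replicate 1, lay above every bud-removed array, and the 8 other controls lay below all of them. AOC3 (1.60 ± 0.22, adjusted p = 8.94e-05) and AOC4 (1.09 ± 0.33, adjusted p = 0.0244) were also higher. In all 5 of 8 jasmonate genes rose (62.5%) and 1 fell (12.5%), against 25.1% and 11.9% of all named genes. With day 20 or day 30 left out 2 rose. Of the signalling genes, JAZ1, a repressor that is itself induced by the hormone, rose by 0.74 ± 0.23, and COI1, the receptor subunit, fell by 0.49 ± 0.17 (adjusted p = 0.0481). Under median centring neither was called, and the COI1 call was lost under 20 of 33 alternatives, among them 14 that left out 1 array, R20 replicate 3 included.

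All 3 tested genes of protease inhibitors, which protect leaves against the digestive enzymes of insects, rose, against 25.1% of all named genes. KTI-2, a Kunitz trypsin inhibitor gene, had 1570.1, 4591 and 6301 in bud-removed leaves, against 19.7, 41.4 and 1838 in controls (5.82 ± 0.60, adjusted p = 6.35e-06). A single control, C15 replicate 1, overlapped the treated arrays, and the next highest had 149. KTI-3, of the same family, had 2429, 4420.2 and 6942 in bud-removed leaves, against 25.3, 77.8 and 1946 in controls (5.02 ± 0.53, adjusted p = 8.93e-06), without overlap. BBI-1, a Bowman-Birk inhibitor of trypsin and chymotrypsin, spread much more, with 421, 4205 and 11379 in bud-removed leaves, against 105, 558 and 8632 in controls (2.25 ± 0.61, adjusted p = 0.0144). Its highest control was C30 replicate 1, and 6 controls lay inside the bud-removed range.

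Of 8 pathogenesis-related genes 6 rose (median 1.74), or 75% against 25.1% of all named genes. PR1-7 had 759.7, 2422 and 3170.4 in bud-removed leaves, against 105, 263 and 3490.4 in controls (2.68 ± 0.51, adjusted p = 0.0013). OLPb, an osmotin-like protein gene, differed by 2.52 ± 0.70 (adjusted p = 0.0159). C30 replicate 1 was among the high controls of both. PR-10 rose by 3.00 ± 0.81 (adjusted p = 0.014), but its probe set carries the same cluster number as that of VSPA, and a shared signal was not tested. With day 20 left out 1 of the 8 was called.

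Most listed genes of saponin synthesis rose. Soyasaponins are bitter triterpene glycosides, built on beta-amyrin, oxidised by cytochromes P450 and completed by glycosyltransferases. Of 6 tested list genes 5 rose (median 3.37), and in all 5 every bud-removed array lay above every control. The remaining list gene was not called, with a difference of -0.33. Over all named genes 25.1% rose and 3.4% lay apart in this way. AMS1, a beta-amyrin synthase gene, is outside the list and was named after its values were seen. It had 2159, 2754 and 5659 in bud-removed leaves, against 73.2, 159 and 1031 in controls (3.60 ± 0.38, adjusted p = 7.12e-06). CYP93E1, which hydroxylates beta-amyrin at carbon 24, had 5829, 7026 and 8327 in bud-removed leaves, against 65.5, 490.0 and 5133 in controls (3.97 ± 0.48, adjusted p = 2.8e-05). For both genes the 9 arrays a side did not overlap, although the highest CYP93E1 control, C15 replicate 1, came close. CYP72A67, of another P450 family, had 3995, 4825 and 6298 in bud-removed leaves, against 127, 477 and 2130.2 in controls (3.38 ± 0.38, adjusted p = 1.46e-05). Among the sugar-adding enzymes, SGT3 had 2040.2, 3484 and 4281 in bud-removed leaves, against 42.8, 169.8 and 992 in controls (4.00 ± 0.38, adjusted p = 3.35e-06). SGT2 (3.36 ± 0.37, adjusted p = 1.34e-05) and GmCSyGT3 (3.04 ± 0.30, adjusted p = 4.07e-06) rose as well. None of the 5 list genes that rose lost its call under any of 33 alternatives. Among these were each array left out, each age left out, median centring and quantile normalization.

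The list of the flavonoid core pathway was drawn by symbols from phenylalanine on to enzymes of flavonols and anthocyanins. Of its 18 genes 9 rose (50%, against 25.1% of all named genes) and none fell (median 1.10). CHI2-A, a chalcone isomerase gene, had 351, 1117 and 2737 in bud-removed leaves, against 54.7, 109.9 and 386 in controls (2.98 ± 0.39, adjusted p = 5.86e-05), with 1 control inside the treated range. CHI1B1, of the same enzyme family, differed by 2.32 ± 0.33 (adjusted p = 0.000113). CHS8, a chalcone synthase gene that makes the first flavonoid, had 4290.5, 4960.4 and 6286 in bud-removed leaves, against 318, 1481 and 4370.3 in controls (2.10 ± 0.42, adjusted p = 0.00176). In the isoflavonoid and pterocarpan branch, which leads to the antimicrobial glyceollins, 10 of 18 genes rose (55.6%) and none fell (median 1.23). IFR, an isoflavone reductase gene, had 275, 603 and 2102 in bud-removed leaves, against 0.852, 34.0 and 729 in controls (3.67 ± 0.79, adjusted p = 0.0034), and 3 controls lay in the treated range. IFR1 (LOC547659) differed by 2.79 ± 0.59 without overlap (adjusted p = 0.00306). CHR5, a chalcone reductase gene, which commits the pathway to 5-deoxy products, differed by 2.57 ± 0.39 (adjusted p = 0.000208). Without the day-20 arrays fewer were called, 4 of 18 core genes and 2 of 18 isoflavonoid genes. The list medians were then 0.84 for the core and 1.33 for the isoflavonoid genes.

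Glutathione S-transferases, which attach glutathione to reactive compounds, had 15 of 36 genes higher and 3 lower (median 0.58). The shares were 41.7% and 8.33%, against 25.1% and 11.9% of all named genes. GSTU28 was the largest, with 2422, 4210.1 and 6896 in bud-removed leaves, against 197, 293 and 2895 in controls (3.34 ± 0.39, adjusted p = 2.15e-05). GSTU59 had 270.2, 660.1 and 1892 in bud-removed leaves, against 50.0, 74.6 and 123 in controls (3.17 ± 0.27, adjusted p = 1.33e-06), the most precise rise of the 3 named and the one without overlap. GSTU26 differed by 2.90 ± 0.67 (adjusted p = 0.00532), and its highest control, C30 replicate 1 at 2213, exceeded every bud-removed array. With day 20 left out 5 of the 36 were higher and 1 was lower.

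**Figure D3:**
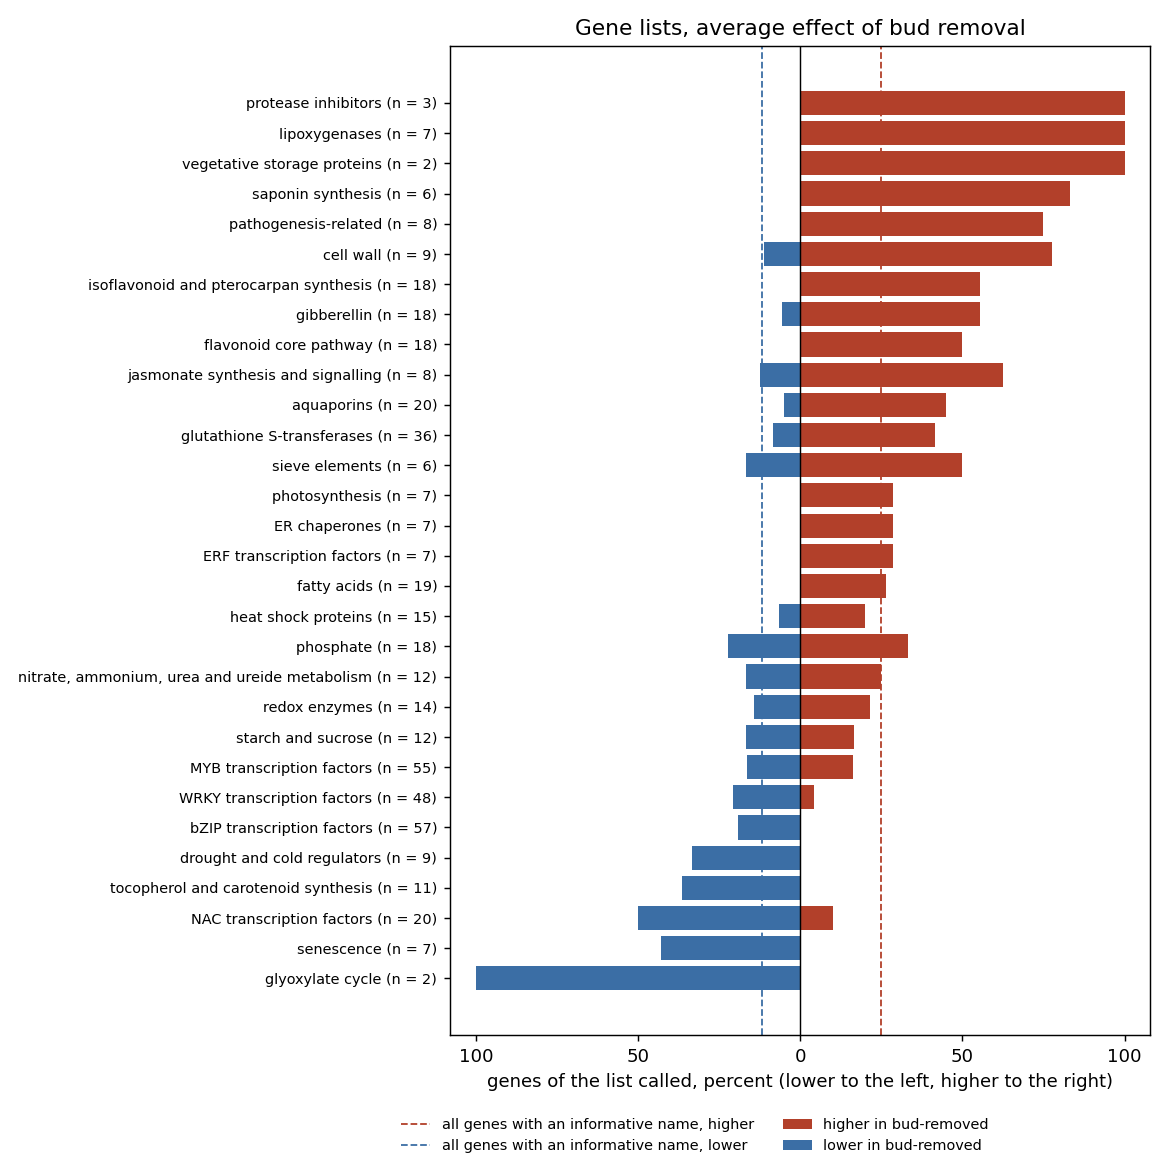
Share of the tested genes of each of 30 lists that were called higher (right, red) or lower (left, blue) in bud-removed leaves, with the number tested in parentheses. Dashed lines mark the shares over all 970 named genes, 25.1% higher and 11.9% lower. Lists of storage, lipoxygenase and inhibitor genes lie at 100% higher and the glyoxylate cycle at 100% lower, each with 7 genes or fewer.

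The GASA genes encode small cysteine-rich proteins induced by gibberellin. With genes of gibberellin metabolism and signalling 10 of 18 rose (55.6%) and 1 fell (5.56%), with a median of 1.57. Over all named genes 25.1% rose and 11.9% fell. GASA9 had 304, 1886 and 3702 in bud-removed leaves, against 1.26, 11.0 and 3342 in controls (5.79 ± 0.88, adjusted p = 0.000219). GASA14 had 18.4, 544 and 1305 in bud-removed leaves, against 1.96, 11.1 and 549 in controls (4.60 ± 0.71, adjusted p = 0.000251), and GASA22 differed by 2.79 ± 0.55 (adjusted p = 0.00162). Control signals were below the floor on 5 of 9 arrays for GASA9 and GASA14, and C15 replicate 1 was the highest control of all 3 genes. The DELLA genes, repressors of gibberellin responses, were split: SLR1 rose by 1.73 ± 0.39 and GAI1 fell by 1.03 ± 0.27 (adjusted p = 0.011). Without C15 replicate 1, 14 of the 18 rose. With day 15 or day 20 left out 6 did, and with day 30 left out 4.

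Of 9 cell wall genes 7 rose (77.8%) and 1 fell (11.1%), with a median of 1.83, against 25.1% and 11.9% of all named genes. EXP4, which encodes an expansin, a wall-loosening protein, had 238, 738 and 2277 in bud-removed leaves, against 1.10, 13.5 and 2835 in controls (5.17 ± 0.95, adjusted p = 0.00102). Its highest value of all was that of C15 replicate 1, and 3 of 9 controls exceeded the floor. EXP2 differed by 2.51 ± 0.62 (adjusted p = 0.00794). XTH1, of the enzymes that cut and rejoin xyloglucan, rose by 2.33 ± 0.58, while XET1, of the same enzyme family, fell by 1.08 ± 0.31 (adjusted p = 0.0173). XET1 was not called with any 1 age left out. Leaving out day 15, day 20 or day 30 left 4, 3 and 3 of the 9 genes higher and none lower.

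Among aquaporins, the membrane channels for water, 9 of 20 rose (45%) and 1 fell (5%), with a median of 0.62. Over all named genes the shares were 25.1% and 11.9%. SIP1-6 differed by 3.09 ± 0.82 (adjusted p = 0.0123), PIP2-9 by 2.45 ± 0.62 (adjusted p = 0.00979) and PIP1-6 by 1.37 ± 0.40 (adjusted p = 0.022). All 3 had controls inside the bud-removed range. C15 replicate 1 was one of them for PIP2-9 and PIP1-6, and for SIP1-6 it lay above every bud-removed array. The fallen gene was PIP2-2 (-0.66 ± 0.23), whose call was lost under median centring and quantile normalization. With day 20 left out 3 of the 20 were called higher, and with day 30 left out 1 was.

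Sieve elements are the conducting cells of the phloem, and SEO genes encode the proteins that plug them after injury. SEOS had 7061, 10286 and 18340.5 in bud-removed leaves, against 222, 649.6 and 5084 in controls (3.62 ± 0.39, adjusted p = 9.86e-06), without overlap. The other SEO genes were near the floor. SEOC (2.01 ± 0.49) exceeded it on 7 bud-removed and 1 control array, and SEOF (1.93 ± 0.55) on 4 bud-removed and 1 control array. SEOE fell by 1.63 ± 0.43 (adjusted p = 0.0121). In all 3 of 6 tested SEO genes rose (50%) and 1 fell (16.7%), against 25.1% and 11.9% of all named genes. The summed signal of all 8 SEO genes was 7122 to 18485 in bud-removed leaves, against 301 to 5214 in controls. Nearly all of that sum is the signal of SEOS, so it says little of the other SEO genes. Whether a changed share of phloem in the sampled leaves took part was not tested.

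Of 12 genes of starch and sugar handling 2 were higher and 2 lower (16.7% each), against 25.1% and 11.9% of all named genes. BMY1 (LOC547931), a beta-amylase gene, had 1456, 3273 and 6516 in bud-removed leaves, against 39.0, 306 and 1567 in controls (3.46 ± 0.61, adjusted p = 0.000698). Its probe set had 2 controls just inside the bud-removed range. SUT1, a sucrose transporter gene, differed by 0.79 ± 0.27 (adjusted p = 0.0467), a call that was lost under 21 of 33 alternatives, median centring among them. SWEET13, of the sugar efflux transporters, was above the floor on none of 9 bud-removed arrays and 4 of 9 controls, so no fold is given (adjusted p = 0.0375). Its call was lost without C15 replicate 1 and R20 replicate 3 (adjusted p = 0.0506). Under median centring 1 of the 12 genes was called higher and none lower.

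Of the enzymes that set the degree of unsaturation of leaf lipids, the desaturases, FAD2-2 had 4321, 5549 and 8961 in bud-removed leaves, against 679.5, 1438 and 4568 in controls (1.93 ± 0.26, adjusted p = 6.56e-05). FAD2 enzymes make linoleic acid, and FAD3 enzymes turn it into linolenic acid. FAD3B differed by 2.21 ± 0.42, with 7 of 9 controls below the floor, and FAD2-3 by 1.70 ± 0.46. Of 19 fatty acid genes 5 rose and none fell, a share near the 25.1% of all named genes. When day 15 was left out 2 were called. Among phosphate genes 6 of 18 rose (33.3%) and 4 fell (22.2%), against 25.1% and 11.9% of all named genes. The list median was 0.16, and with any 1 age left out 3 rose and 2 fell. PAP25, a purple acid phosphatase gene, had 2135, 3377 and 6843 in bud-removed leaves, against 253, 506 and 1761 in controls (2.71 ± 0.35, adjusted p = 4.41e-05), without overlap. PAP, of the same family, differed by 1.63 ± 0.33, and the phosphate transporter gene PHT1-8 fell by 1.82 ± 0.35, above the floor on 1 of 9 bud-removed and 8 of 9 control arrays.

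In the opposite direction, the glyoxylate cycle held the 2 largest falls among named genes. Its enzymes malate synthase (MS) and isocitrate lyase (ICL1) turn the acetyl-CoA from fatty acid breakdown into precursors of sugar, and are known from germinating seeds and ageing leaves. MS had 7.69, 19.2 and 894 in bud-removed leaves, against 42.1, 4457 and 6196 in controls (-5.88 ± 0.80, adjusted p = 8.32e-05). By group, its arrays had 7.69, 19.2 and 9.47 in D15 against 42.1, 6196 and 4354 in C15, 13.3, 14.1 and 139.6 in R20 against 4705, 4457 and 3454 in C20, and 92.0, 242 and 894 in R30 against 4891, 6139.6 and 3878 in C30. At each age all bud-removed arrays were below all controls, and the low control was C15 replicate 1, without which the difference was -6.50 ± 0.64. ICL1 had 9.26, 23.2 and 65.1 in bud-removed leaves, against 19.2, 632 and 3080.0 in controls (-4.58 ± 0.68, adjusted p = 0.000168). The exact falls rest on bud-removed signals of which 4 of 9 were below the floor for each gene. Another ICL1 probe set differed by -6.87 ± 1.06. The fall of both genes was called in each of the 33 alternatives.

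**Figure D4:**
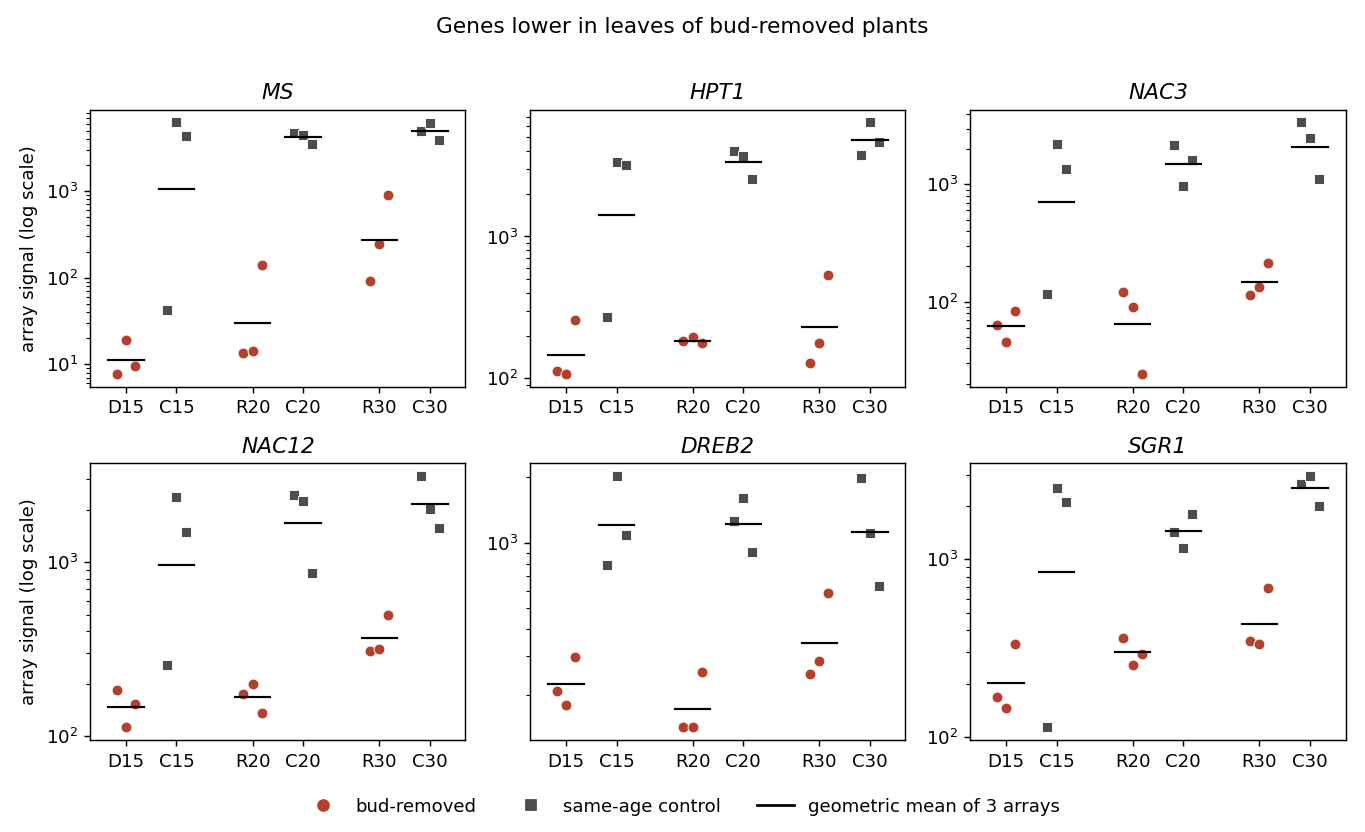
Array signals on a log scale for 6 genes that fell, drawn as D15, R20 and R30 (red circles) each left of its same-age control (grey squares), with a bar at the geometric mean of 3 arrays. DREB2 shows no overlap between the 9 arrays a side, and in the 5 other genes the one control that is not above all bud-removed arrays is C15 replicate 1, at 42.1 for MS and 113 for SGR1.

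Of 7 senescence genes 3 fell (42.9%, against 11.9% of all named genes) and none rose (median -1.25). SGR1, a stay-green gene whose product starts chlorophyll breakdown, had 146, 333 and 689 in bud-removed leaves, against 113, 2003 and 2945 in controls (-2.29 ± 0.43, adjusted p = 0.00128). Apart from C15 replicate 1, which was below every bud-removed array, no control reached the treated range. SGR2, the related gene, fell by 1.84 ± 0.41 (adjusted p = 0.00454). VPE2, a vacuolar processing enzyme gene whose product matures other vacuolar proteins by cutting them, had 414, 1986 and 10476 in bud-removed leaves, against 3336, 9352 and 13986 in controls (-2.14 ± 0.41, adjusted p = 0.0013). Its groups overlapped broadly over the 9 arrays, with 6 controls inside the bud-removed range.

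Of 11 genes of tocopherol and carotenoid synthesis, the pathways of the lipid antioxidants and pigments of chloroplasts, 4 fell and none rose. The share that fell was 36.4%, against 11.9% of all named genes. HPT1, homogentisate phytyltransferase, the committing enzyme of tocopherol synthesis, had 107, 178 and 535 in bud-removed leaves, against 271, 3712 and 6370.1 in controls (-3.95 ± 0.42, adjusted p = 7.67e-06). HPPD, which supplies homogentisate, fell by 1.55 ± 0.42 (adjusted p = 0.0142). BCH3, a beta-carotene hydroxylase gene, had 4.73, 39.2 and 51.5 in bud-removed leaves, against 24.9, 967 and 1597 in controls (-4.09 ± 0.66, adjusted p = 0.000334). In HPT1 and BCH3 the single control inside the bud-removed range was C15 replicate 1.

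The NAC family held 5 of the 10 largest falls that carry a name. Of its 20 genes 10 fell (50%) and 2 rose (10%), with a median of -1.09. Over all named genes 11.9% fell and 25.1% rose. NAC3 had 24.1, 89.7 and 216 in bud-removed leaves, against 116, 1629 and 3379.8 in controls (-3.94 ± 0.47, adjusted p = 2.28e-05). NAC12 had 112, 185 and 500.1 in bud-removed leaves, against 258, 2016 and 3128 in controls (-2.86 ± 0.34, adjusted p = 2.36e-05). The same array, C15 replicate 1, was the one control in the treated range of both. NAC1 (-3.08 ± 0.56), NAC34 (-2.96 ± 0.43) and NAC27 (-2.53 ± 0.54) fell as well, with adjusted p of 0.0009, 0.000146 and 0.00324. Against the family, NAC6 rose, with 533, 838 and 1235 in bud-removed leaves, against 83.5, 212 and 412 in controls and no overlap (1.95 ± 0.22, adjusted p = 1.52e-05). NAC55 rose by 1.33 ± 0.28. Under median centring 2 were higher and 8 lower, without C15 replicate 1 the numbers were 2 and 11, and with day 20 left out 2 and 6.

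Of 9 drought and cold regulators 3 fell (33.3%, against 11.9% of all named genes) and none rose. All 3 are DREB genes, whose products switch on dehydration responses. DREB2 had 141, 249 and 584 in bud-removed leaves, against 632, 1104 and 2026 in controls (-2.31 ± 0.27, adjusted p = 2.27e-05). All 9 bud-removed arrays lay below all 9 controls, which 5 of 970 named genes (0.515%) and 112 of all probe sets (0.347%) did. DREB3 fell by 1.18 ± 0.16 (adjusted p = 9.22e-05) and DREB1 by 0.74 ± 0.19 (adjusted p = 0.0102).

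Of 57 genes of bZIP transcription factors 11 fell (19.3%) and none rose (median -0.35), against 11.9% lower and 25.1% higher over all named genes. Among the fallen were bZIP84 at -1.90 ± 0.34, BZIP36 at -1.79 ± 0.33 and BZIP61 at -1.70 ± 0.50. Under median centring 12 fell and 1 rose, and without C15 replicate 1 the numbers were 19 and 1. With day 20 left out 4 fell, and with day 30 left out 6. Of 48 WRKY genes, a family of defence and senescence regulators, 10 fell (20.8%) and 2 rose (4.17%). The numbers were 7 and 3 under median centring, and 4 and 1 with day 20 or day 30 left out. WRKY8 fell by 1.64 ± 0.29 (adjusted p = 0.000825) and WRKY62 by 1.49 ± 0.51 (adjusted p = 0.0426), a call lost under 18 of 33 alternatives, while WRKY30 rose by 1.58 ± 0.37. MYB genes, many of which control phenylpropanoid and flavonoid synthesis, were called 9 higher and 9 lower of 55, or 3 and 6 with day 20 left out. The 9 in each direction are 16.4% of the list, against 25.1% higher and 11.9% lower over all named genes. MYB92 had 206, 395 and 725 in bud-removed leaves, against 19.0, 59.2 and 149.7 in controls (2.55 ± 0.38, adjusted p = 0.000164), without overlap. MYB121 rose by 2.47 ± 0.50 and MYB68 fell by 2.28 ± 0.50. Of 7 ERF-type genes 2 rose, near the 25.1% of all named genes: RAV rose by 1.42 ± 0.42 and EREBP1 by 1.76 ± 0.56, and neither was called with day 20 left out.

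Nitrogen assimilation had no common direction, with 3 of 12 genes higher and 2 lower (25% and 16.7%, median -0.10). Over all named genes the shares were 25.1% higher and 11.9% lower. AS2, asparagine synthetase, which makes the amide that carries nitrogen out of leaves, had 39.7, 95.4 and 197 in bud-removed leaves, against 56.6, 607 and 4759 in controls (-2.75 ± 0.69, adjusted p = 0.00889). A single control, C30 replicate 1, lay inside the bud-removed range. GS1-GAMMA, a cytosolic glutamine synthetase gene, rose by 1.66 ± 0.40 and INR2, an inducible nitrate reductase gene, by 1.67 ± 0.53 (adjusted p = 0.0308). With day 20 left out none of the 12 was called.

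In 4 further lists, of photosynthesis, heat shock, endoplasmic reticulum and redox genes, the share called higher was near the 25.1% of all named genes, so their called members are given as single genes. Of 7 photosynthesis genes 2 rose, both encoding light-harvesting chlorophyll proteins, and the RuBisCO activase genes were not called. LHCP had 5113, 7731 and 9900.0 in bud-removed leaves, against 268, 1653 and 11683 in controls (2.23 ± 0.40, adjusted p = 0.000922), and C15 replicate 1 had the highest signal of all 18 arrays. CAB3 differed by 0.74 ± 0.25 (adjusted p = 0.0425), but not under median centring or quantile normalization. Of 15 heat shock genes 3 rose, HSP17.5-E (2.52 ± 0.36), HSP23.9 (1.47 ± 0.26) and HSF-01 (1.28 ± 0.24), and 1 fell. Of 7 chaperones of the endoplasmic reticulum 2 rose, the protein disulfide isomerase genes PDIL-1 (0.98 ± 0.19) and PDIM-1 (0.74 ± 0.24, adjusted p = 0.0324), the second lost under 11 of 33 alternatives. With day 15 left out 1 of the 7 was higher and 1 lower. Among redox enzymes 3 of 14 rose and 2 fell: SOD1, superoxide dismutase, by 1.99 ± 0.30 and the peroxidase gene PRX2 by 1.25 ± 0.26 on the rising side. AOX1, the alternative oxidase of mitochondria, had 170.5, 325 and 554 in bud-removed leaves, against 508, 1396 and 2122 in controls (-1.86 ± 0.31, adjusted p = 0.000437). Of the 2 markers of dividing cells, PCNA had 109.9, 206 and 431 in bud-removed leaves, against 94.1, 156 and 203 in controls and was not called (0.50 ± 0.24, adjusted p = 0.138). The histone gene H4 was called (1.78 ± 0.47), though its probe set carries the cluster number of VSPA.

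Whether the effect differed between ages was tested with the interaction of treatment and age. No probe set was called by limma's F-test (0.0%), while 2989 had an unadjusted p under 0.05. Leaving out C15 replicate 2 gave 2 calls and array weights, whose estimation stopped before it converged, gave 11363. The smallest interaction p among named genes was that of INR2 (0.000335, adjusted p = 0.514), whose differences were -0.77 ± 0.59 at day 15, 3.45 ± 0.59 at day 20 and 2.33 ± 0.59 at day 30. INR1, its relative, had -0.92 ± 0.52 at day 15, 2.74 ± 0.52 at day 20 and 1.90 ± 0.52 at day 30 (0.000349, adjusted p = 0.514). ERD15, a dehydration-responsive gene, had -0.69 ± 0.25 at day 15, 0.85 ± 0.25 at day 20 and -0.49 ± 0.25 at day 30, and ALAAT1, alanine aminotransferase, had 0.78 ± 0.32 at day 15, -1.01 ± 0.32 at day 20 and 0.78 ± 0.32 at day 30. BZIP61 was the fifth, with -0.06 ± 0.62 at day 15, -3.80 ± 0.62 at day 20 and -1.24 ± 0.62 at day 30. Each of the 5 had a difference near 0 or of the opposite sign at 1 age, and none passed the adjusted threshold.

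Read for each age from 1 model of all 6 groups, 119 probe sets were called at day 15 (0.369%), 5414 at day 20 (16.8%) and 711 at day 30 (2.2%). The 3 ages share 1 error estimate per probe set in that model, so a stray array at 1 age widens the error at all 3. Of the 3571 higher probe sets 3534 had the same sign at all 3 ages, and of the 3482 lower ones 3445 did, an agreement that a call on the average favours. The median standard error was 0.31 for the average and 0.52 for a single age, and 1701 of the higher and 1786 of the lower probe sets were called at no single age in the same 18 arrays. The largest of the 3 differences was that at day 20 for 1863 of the higher and 2285 of the lower probe sets. At all 3 ages every bud-removed array lay above every same-age control for 66 of 970 named genes (6.8%) and 853 of all probe sets (2.64%), and below for 22 named genes (2.27%) and 442 probe sets (1.37%).

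**Figure D5:**
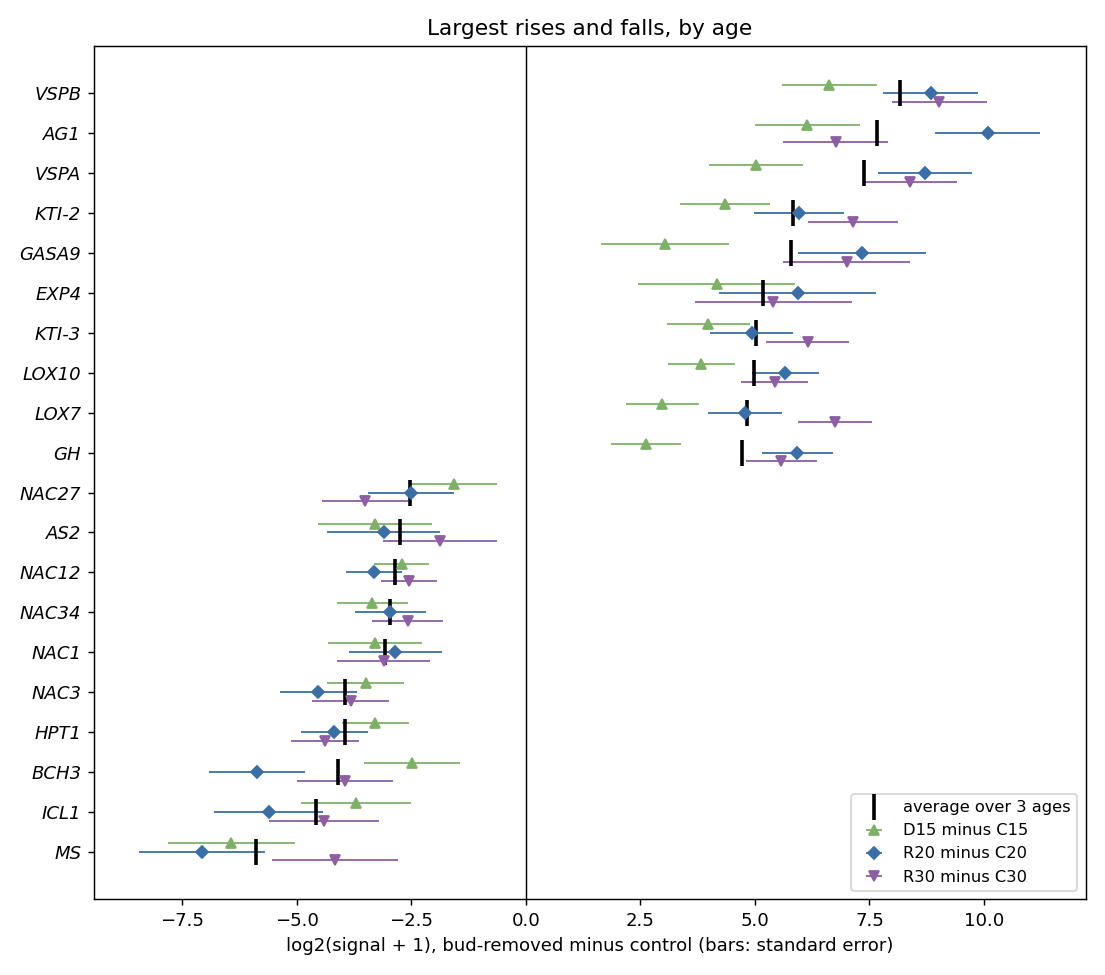
Differences between bud-removed and same-age control leaves on the log2(signal + 1) scale at day 15 (D15 minus C15), day 20 (R20 minus C20) and day 30 (R30 minus C30), with standard errors, for the 10 largest rises and 10 largest falls. Black marks are the averages over the 3 ages, from 8.16 for VSPB to -5.88 for MS, and all 3 differences of each gene have the same sign.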

How the data were processed

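Leaf RNA was labelled with biotin in 1 cycle for Affymetrix soybean arrays, as the labels' protocols state. The authors' deposited table gives 1 linear intensity per probe set and array for 61170 probe sets. The 2% trimmed mean of each array in the deposited intensities lies between 125.009 and 125.015, which shows a scaling to 1 target. The summarising software and a genome build for the probe sets are not given in the sources used here; coordinates are therefore left out.

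From these intensities, log2(value + 1) was fitted with limma 3.58.1 in R 4.3.3 (lmFit, eBayes with a variance trend), with age as a block and 1 treatment effect over 18 arrays, and a 6-group model gave effects by age and the F-test of the interaction. Benjamini-Hochberg adjustment ran over 32280 probe sets, and the fits were tested on simulated data. In the table of gene names 8677 soybean probe sets have a single gene, 370 have more (left unnamed) and 28546 have none; symbols were updated from RefSeq, where 21 identifiers were absent. Of 1620 genes with several tested probe sets 9 had probe sets called in both directions.

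Groups follow the sample labels. The study drew on 3 replicate time courses, but the labels do not say whether a replicate number marks one, so the numbers were not used as pairs. The highest correlation between 2 arrays was 0.962, and no array was a copy of another.

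The gene lists and the comparison were chosen with earlier results of these data known, and list members were trimmed or added by symbol after the table was read. The text names the 10 largest called rises and falls among informatively named genes, at most 3 called members a list, the 5 smallest interaction p-values, VSPA and VSPB. AMS1, COI1, JAZ1, SLR1, GAI1, SEOE, NAC6, NAC55, XET1, PIP2-2, GmCSyGT3 and SGT2 were named after their values were seen. Alternatives covered scaling, pseudocount, filter, variance trend, model, array weights, actin ratio, replicate block, each array and each age. The number of arrays limits the precision.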

Additional observations from a re-analysis of the deposited data

Results flagged for a closer look

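Of 208 sets of 9 arrays (the bud-removed or the control arrays of a named gene), 26 had a highest or lowest signal far from the 8 others. This was judged by Dixon's test at the 95% level, which picks out about 1 in 20 independent sets of like arrays. Here each set spans 3 ages and all sets share the same 18 arrays, so that rate is no measure for the 26. C15 replicate 1 was that array in most of them. Among genes that rose, its signal was above the other controls for AG1 (893.5), EXP2 (640), FAD2-2 (4568), FAD2-3 (2446), GASA14 (549), GSTU28 (2895), KTI-2 (1838), VSPA (3542) and VSPB (1452). Among genes that fell it was below the other controls for BCH3 (24.9), HPT1 (271), ICL1 (19.2), MS (42.1), NAC1 (35.2), NAC3 (116), NAC34 (150), SGR1 (113), SGR2 (308), VPE2 (3336) and WRKY8 (30.0). Among the bud-removed arrays R20 replicate 3 stood apart for BCH3 (4.73), FAD2-3 (167), INR1 (142) and LOX7 (15450), D15 replicate 1 for MYB68 (3.16) and R30 replicate 3 for PRX2 (308). The part of array handling or sample identity in these values was not tested.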

How the results depend on the processing

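The average effect was recomputed under 33 alternatives, 18 of which left out 1 array each. Leaving out 1 array gave 5315 to 9445 called probe sets, 2958 to 4446 higher and 2357 to 4999 lower, and 0 to 2 for the interaction, the 2 without C15 replicate 2. Array weights, whose estimation stopped before it converged, gave 18291 (8034 higher, 10257 lower) and 11363 interaction calls. Leaving out C15 replicate 1 and R20 replicate 3 together gave 10720, with 5583 lower. Leaving out day 15 gave 2249 lower, day 20 gave 2500 (1661 higher, 839 lower) and day 30 gave 3381 (1899 higher, 1482 lower), each with 12 arrays. The share of calls that were higher was 50.6% as deposited, 61.5% under median centring and 53.1% under quantile normalization. With the replicate block 7602 were called, 3769 higher and 3833 lower, and the pairing is unsettled: 11 of 18 arrays correlated best with an array of their own number, a hint from the data, while deviations of same-age, same-number arrays correlated above 0.1 in 4 of 9 pairs. Of the named genes called, 60 were called under every alternative. Reversed results were those of genes chosen for their interaction: ERD15 was 0.0060 under median centring, 0.18 without day 15 and 0.0798 without day 30, and ALAAT1 was -0.11 without day 15 and -0.12 without day 30, against -0.11 and 0.18 in the main result. The causes were not tested. Most of the 9 arrays of a group were below the floor for 13 named genes, 9 called higher (AG1, EREBP1, EXP4, FAD3B, GASA9, GASA14, SEOC, SEOF and XTH1) and 4 lower (MYB68, PHT1-8, SEOE and SWEET13), and 4 of 9 for MS, ICL1 and SIP1-6, so the sizes of these differences depend on the pseudocount.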

Other observations

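Of the 100 largest called rises among all probe sets 28 had an informative gene name, and of the 100 largest falls 21 did. Among probe sets with no gene name, the largest rise had signals of 955, 1461 and 2771 in bud-removed leaves, against 0.598, 19.6 and 161 in controls (lowest, median and highest of 9 arrays), a log2 difference of 6.51 ± 0.62. The second largest had 53.9, 706 and 2039 in bud-removed leaves, against 0.922, 1.75 and 152 in controls. On the falling side, the probe set with the largest fall was above the floor on none of 9 bud-removed arrays and on 8 of 9 controls, where its median signal was 646, and the second on none of 9 and 8 of 9, with a control median of 728.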
